A study of Mus musculus with 5 samples.

Results

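The genes described here encode the potassium channel subunits of the mouse and the related HCN channels, as measured in whole cerebella of control mice and of mice with Yy1 deleted by a Purkinje cell Cre. Members were all protein-coding genes of the GENCODE annotation whose symbol starts with Kcn or Hcn, 98 of the 55421 genes in the count table: 94 Kcn genes and 4 Hcn genes, in 22 subfamilies by the letters that follow Kcn. Bulk RNA-seq of rRNA-depleted, strand-specific libraries was carried out at postnatal day 14. The 2 control libraries came from littermates of genotype Pcp2 Cre/+; Yy1 fx/+, and the 3 libraries of the conditional knockout (Yy1 cKO) from Pcp2 Cre/+; Yy1 fx/fx mice. All animals thus carried the Cre recombinase under the Pcp2 promoter, which is active in Purkinje cells, and at least 1 floxed copy of Yy1, a zinc finger transcription factor, so the comparison is of 1 floxed copy with 2 and includes no mouse without Cre. The animals were of mixed sex, the sex of each is not given, and the labels do not tie replicates to animals or litters. P-values therefore measure the spread among these libraries alone, which may be technical.

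Potassium channels let potassium ions leave the cell and so set the resting potential, shorten the action potential and space the spikes of a train. Most are tetramers of pore-forming subunits, chosen from large gene families that differ in the voltage, calcium, sodium or G protein signal that opens them, and many carry auxiliary subunits that change their gating or their place in the membrane. HCN channels are built on the same plan but conduct a mixed cation current that opens on hyperpolarization. In the cerebellum, fast Kv3 and calcium-activated BK channels repolarize the Purkinje cell spike, Kv1 channels gather in the terminals of basket cells around the Purkinje cell axon, Kv4 channels and K2P leak channels control the excitability of granule cells, and Kir4.1 belongs to Bergmann glia and astrocytes.

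Total counts per library were 17424860 to 20305705, of which the members held 0.535% to 0.664%. Levels are CPM, a gene's count relative to the total of its library, scaled by TMM factors, and levels of different genes are compared only after division by exon length (CPM per kb). Where values are set against each other, those of controls 1 and 2 come first and those of Yy1 cKO 1, 2 and 3 follow. The adjusted p is from edgeR's quasi-likelihood test of Yy1 cKO against control with Benjamini-Hochberg adjustment over all genes tested, and genes under 0.05 are said to have risen or fallen. The targeted gene Yy1, which is active in many cell types of the tissue, had 74.6 and 73.7 CPM in the controls against 73.4, 81.7 and 75.8 CPM in Yy1 cKO (a log2 fold change of 0.05 ± 0.065 SE with adjusted p = 0.61), so its level in whole cerebellum does not check the labels. The Yy1 cKO libraries had less RNA of immature cells: all 12 markers of granule cell precursors and young neurons fell, with a summed level of 1412 to 1515 CPM in the controls and 581 to 657 CPM in Yy1 cKO. Markers of Purkinje cells rose in 5 of 14 cases (5916 to 5942 CPM in the controls and 7073 to 8252 CPM in Yy1 cKO), of mature granule neurons in 8 of 12, with 1 falling (4592 to 4777 CPM in the controls and 5704 to 6162 CPM in Yy1 cKO), and of molecular layer interneurons and Golgi cells in 6 of 10 (988 to 1026 CPM in the controls and 1425 to 1530.2 CPM in Yy1 cKO). Astrocyte and Bergmann glia markers rose in 3 and fell in 2 of 12 cases (3855 to 4099.9 CPM in the controls and 4281 to 5479 CPM in Yy1 cKO), and oligodendrocyte lineage markers rose in 1 and fell in 4 of 12 (6389 to 6447 CPM in the controls and 6115 to 6803 CPM in Yy1 cKO). These sums are weighted towards abundant markers. The median log2 fold change was -3.80 for markers of precursors and young neurons, 0.22 for Purkinje cells and 0.47 for mature granule neurons. It was 0.45 for molecular layer interneurons and Golgi cells, -0.11 for astrocytes and Bergmann glia and -0.21 for the oligodendrocyte lineage. No marker of these 6 lists was at 0 in every library. Of the rest, 0 of 7 microglial markers tested changed, endothelial and mural markers rose in 2 and fell in 5 of 10 cases, choroid plexus markers rose in 1 and fell in 1 of 5, erythroid markers rose in 4 of 5, and forebrain markers fell in 2 of 5. Beside all these counts, 10.7% of all genes tested rose and 12.6% fell, so a few calls in a list need not mark a shift of its cell type. Yy1 cKO 3 stood apart from the other libraries on the second principal component (17.05% of the variance of log2 CPM). In whole tissue, fewer cells of a type and less RNA per cell cannot be told apart, and the part of these shifts in the results below was not tested.

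Some abundant potassium channel genes, among them Kcna1, Kcna2, Kcnd2 and Kcnt1, were higher in the Yy1 cKO cerebella. Other abundant members, such as Kcnk1, Kcnc1 and Kcnj10, did not pass, and Kcnip3 and Kcnk9 fell. The set that was lower was smaller, and in it Kcnq5, Kcnk2 and Kcnb2 had the smallest p. Together the members summed to 5214 and 5202 CPM in the controls against 6751, 6858 and 6452 CPM in Yy1 cKO, so every Yy1 cKO library exceeded both controls. Of the 98 members 78 passed the filter on low counts and were tested, and 26 of them rose and 14 fell. The 40 called are 51.3% of those tested, beside 23.4% of all genes tested; 33.3% rose, beside 10.7% of all genes, and 17.9% fell, beside 12.6%. Among genes with a mean of at least 1 CPM the shares were 55.7% of 70 members and 25.6% of all genes. In these comparisons all genes were not limited to protein-coding genes, as the members were, and were not matched to them in level. The median log2 fold change of the 78 members was 0.11, beside -0.00086 over all genes tested. The groups did not overlap for 51 of the 78 (65.4%), beside 52.2% of all genes tested. The rises were many and moderate and the falls few and larger: 3 genes rose at least 2-fold and 8 fell at least 2-fold. Of those 8, Kcnh8, Kcnh6, Kcnmb2, Kcnt2 and Kcne4 had control means of only 1.04 to 5.52 CPM. With so few counts a smaller change is less likely to pass the threshold. Those that rose also had more counts. Their median over all libraries, not divided by exon length, was 95.0 CPM, against 7.79 CPM among those that fell. In the controls alone 22 of the 26 that rose and 6 of the 14 that fell had at least 20 CPM. Without control 1 the fit called 17 members higher and 10 lower, and without control 2 it called 17 higher and 9 lower. Each of these fits called 10.3% of all genes tested, beside 23.4% with all libraries. All 27 and 26 members called in these fits were among the 40, none with another sign. Without Yy1 cKO 3 the fit called 45, which included 39 of the 40, beside 30.5% of all genes tested.

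**Figure D1:**
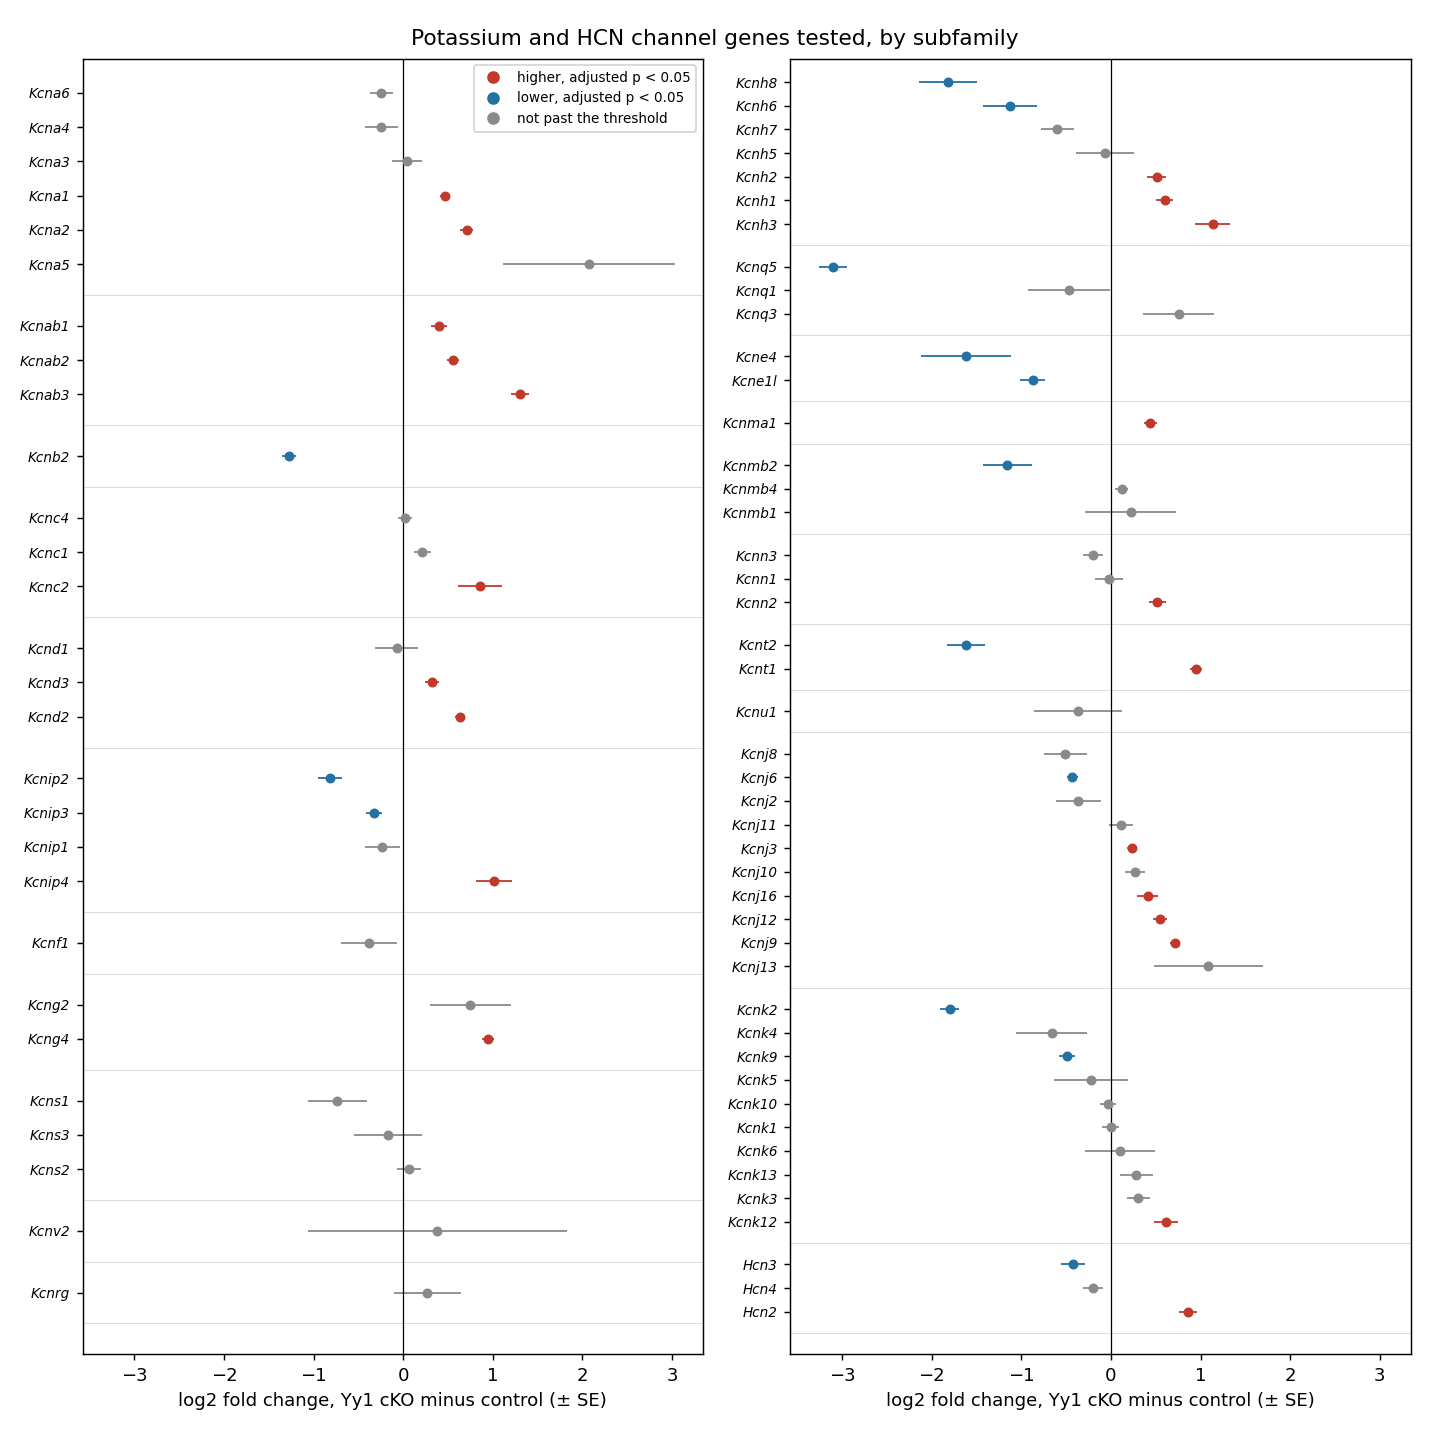
Log2 fold change of Yy1 cKO over control for 73 of the members tested, with its standard error as a bar, grouped by subfamily and coloured by the call at an adjusted p of 0.05. Kcnq5 lies furthest to the left at -3.10, and the 22 members in red lie to the right of 0 while the 14 in blue lie to the left.

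The remaining 20 members were not tested. Kcnj1, Kcnk16, Kcnk18 and Kcnmb3 had 0 counts in every library, which allows at most 0.151 to 0.167 CPM per library at a limit of 3 counts, for counting error only. The other 16 had 1 to 32 counts over the 5 libraries together: Kcna7, Kcna10, Kcne1, Kcne2, Kcne3, Kcng1, Kcng3, Kcnh4, Kcnj4, Kcnj5, Kcnj14, Kcnj15, Kcnk7, Kcnk15, Kcnn4 and Kcnv1. Many of these are known from other tissues, such as heart, kidney, pancreas or inner ear. Of all members 29, 17 of them called, share exon bases with another gene, most of them on the opposite strand. Partners with many counts are given beside the member. Kcnmb4os2, opposite Kcnmb4, shares up to 693 exon bases with it and had 71 to 89 counts per library. No counts were found for Gm26580, Gm26794 and Gm16334, which share up to 167, 1080 and 125 exon bases with Kcnq5, Kcnj3 and Kcnab2. Their part in the counts of these members is not known.

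The promoters of 4 members are printed here, as 250 bases before to 50 after a transcription start of RefSeq on GRCm38.p6, read 5′ to 3′ along the gene. Kcnq5 and Kcnk2 are shown as the members with the largest falls among those of at least 20 CPM in the controls, and Kcnab1 and Kcnma1 because they alone among the members held the second of the motifs searched. Capitals mark a motif.
Kcnq5 promoter, chr1:21961893-21962192, minus strand: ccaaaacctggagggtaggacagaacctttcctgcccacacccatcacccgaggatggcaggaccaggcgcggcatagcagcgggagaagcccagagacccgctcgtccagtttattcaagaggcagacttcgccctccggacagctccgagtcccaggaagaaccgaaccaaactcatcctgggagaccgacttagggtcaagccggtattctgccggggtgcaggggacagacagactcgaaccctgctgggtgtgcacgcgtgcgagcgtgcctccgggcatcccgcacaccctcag
Kcnk2 promoter, chr1:189402224-189402523, minus strand: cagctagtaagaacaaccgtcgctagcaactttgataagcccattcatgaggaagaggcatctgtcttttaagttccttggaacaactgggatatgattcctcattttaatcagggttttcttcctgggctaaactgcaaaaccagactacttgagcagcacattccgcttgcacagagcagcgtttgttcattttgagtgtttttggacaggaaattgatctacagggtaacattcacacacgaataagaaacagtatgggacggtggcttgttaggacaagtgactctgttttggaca
Kcnab1 promoter, chr3:65187853-65188152, plus strand: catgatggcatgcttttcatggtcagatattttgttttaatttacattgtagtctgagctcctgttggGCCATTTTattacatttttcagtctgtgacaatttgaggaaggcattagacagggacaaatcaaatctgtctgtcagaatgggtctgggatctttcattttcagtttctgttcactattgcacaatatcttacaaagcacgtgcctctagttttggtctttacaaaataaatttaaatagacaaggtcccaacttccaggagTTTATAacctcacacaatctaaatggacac
Kcnma1 promoter, chr14:24004156-24004455, minus strand: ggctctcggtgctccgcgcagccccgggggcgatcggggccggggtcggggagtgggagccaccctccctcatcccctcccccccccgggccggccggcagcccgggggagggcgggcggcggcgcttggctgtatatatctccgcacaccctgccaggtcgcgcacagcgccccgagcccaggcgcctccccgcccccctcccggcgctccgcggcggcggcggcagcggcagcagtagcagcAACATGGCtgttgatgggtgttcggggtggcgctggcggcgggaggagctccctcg
Motifs were ATGGCGGC and GCCATNTT, both forms of the sequence bound by YY1, and TATAAA, the TATA box, each searched on both strands; the first 2 overlap in their shared letters GCCAT. The RefSeq table held 96 promoters of 71 members and 32851 promoters of all genes. ATGGCGGC was in 0 member promoters and in 2.24% of all. GCCATNTT was in 2 member promoters, 2.08%, beside 6.05% of all, and TATAAA in 5, or 5.21%, beside 13.6% of all. In Kcnma1 the GCCATNTT match lies on the opposite strand and begins 6 bases before the start, and in Kcnab1 it begins 182 bases before the start shown. The Kcnab1 window also holds TATAAA on the opposite strand, 20 bases after that start, which is 1 of 3 in the table and lies 78719 bases from the 5′ end of the GENCODE gene. For Kcnma1 that distance is 10286 bases, and for Kcnq5 and Kcnk2 it is 0. The other 4 TATAAA matches were in Kcnj9, Kcnj13, Kcnj15 and Kcnj16. The Kcnma1 and Kcnq5 promoters are rich in G and C (78.0% and 62.7% of bases), while those shown for Kcnk2 and Kcnab1 hold 43.0% and 36.7%, beside a median of 52.7% over all promoters.

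Of the Kv1 subunits, the low-threshold channels of axons and terminals, Kcna1 and Kcna2 rose and the 4 others tested did not pass. Kcna1 encodes Kv1.1, the subunit mutated in a form of episodic ataxia, and had 230.2 and 231 CPM in the controls against 320.2, 306 and 329.7 CPM in Yy1 cKO (a log2 fold change of 0.47 ± 0.058 SE with adjusted p = 4.6e-04). Kcna2, its usual partner Kv1.2, had 342 and 336 CPM in the controls against 562, 589 and 512 CPM in Yy1 cKO (a log2 fold change of 0.71 ± 0.073 SE with adjusted p = 1.3e-04). The groups did not overlap for either gene, as for 52.2% of all genes tested. The Kv1.6 gene Kcna6 stood at 86.2 and 70.3 against 72.0, 69.4 and 56.7 CPM, and its groups overlapped (a log2 fold change of -0.25 ± 0.13 SE with adjusted p = 0.22). Kcna3 and Kcna4 lay between 4.83 and 7.46 CPM in every library. Kcna5 was rare, with 3 and 12 counts in the controls against 18, 16 and 65 in Yy1 cKO, the highest in Yy1 cKO 3 (a log2 fold change of 2.07 ± 0.96 SE with adjusted p = 0.19). All 3 cytoplasmic Kv beta subunits, which bind Kv1 channels and speed their inactivation or their delivery, rose. Kcnab3 rose most of all called members, by 1.30 ± 0.10 (SE, adjusted p = 3.1e-05), with 9.67 and 9.48 CPM in the controls against 22.6, 23.4 and 24.9 CPM in Yy1 cKO. Kcnab2, the most abundant of them per kb, had 80.6 and 86.9 against 119, 119 and 132 CPM (a log2 fold change of 0.56 ± 0.070 SE with adjusted p = 4.7e-04), and Kcnab1 had 61.6 and 63.5 against 86.7, 87.7 and 72.6 CPM (a log2 fold change of 0.40 ± 0.086 SE with adjusted p = 0.0094). In each of these 3 called genes the lowest Yy1 cKO library lay above both controls. Kcnab1 was not called without control 1 or control 2 (with adjusted p = 0.10 and 0.070).

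Kv3 channels open at high voltage and close fast. Kcnc1, the Kv3.1 subunit typical of granule cells, had 591 and 581 CPM in the controls against 718, 731 and 590.2 CPM in Yy1 cKO; Yy1 cKO 3 lay between the controls while the other Yy1 cKO libraries lay above them (a log2 fold change of 0.21 ± 0.093 SE with adjusted p = 0.13). Without Yy1 cKO 3 its log2 fold change was 0.31 (adjusted p = 2.1e-04). Kcnc2, a subunit of fast-spiking interneurons, was rare here, with 44 and 50 counts in the controls against 116, 65 and 85 in Yy1 cKO (a log2 fold change of 0.86 ± 0.25 SE with adjusted p = 0.033), and its call was lost without control 1, control 2 or Yy1 cKO 1 (with adjusted p = 0.20, 0.11 and 0.11). Kcnc4 lay at 38.0 to 42.4 CPM in all libraries.

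Kv2 channels are delayed rectifiers of the soma and dendrite, and Kcnb2 (Kv2.2) was among the largest falls. It had 61.1 and 65.7 CPM in the controls against 28.5, 25.1 and 25.02 CPM in Yy1 cKO (a log2 fold change of -1.27 ± 0.082 SE with adjusted p = 1.0e-05), and the 3 Yy1 cKO libraries all lay far below both controls. Subunits of the Kcnf, Kcng, Kcns and Kcnv subfamilies form no channel alone and modify Kv2. Of those tested Kcng4 (Kv6.4) alone passed, and had 70.1 and 61.8 CPM in the controls against 129.7, 122 and 129 CPM in Yy1 cKO (a log2 fold change of 0.95 ± 0.070 SE with adjusted p = 2.2e-05). It made up 97.4% and 97.3% of the Kcng subfamily per kb in the controls. Kcns2, the most abundant of its subfamily, had 9.78 and 9.81 against 10.6, 11.2 and 8.91 CPM, and Kcnf1 1.24 and 1.34 against 0.856, 0.931 and 1.18 CPM. The retinal subunit gene Kcnv2 varied widely within groups, with 11 and 42 counts in the controls against 6, 13 and 88 in Yy1 cKO (a log2 fold change of 0.38 ± 1.4 SE with adjusted p = 0.89). Kcng2, Kcns1 and Kcns3 had log2 fold changes of 0.75, -0.74 and -0.17 and did not pass, though Kcns1 passed without Yy1 cKO 3 (adjusted p = 0.049). Kcnrg, which encodes a soluble regulator of Kv channels, had 1.13 and 0.613 against 1.21, 0.931 and 1.02 CPM (a log2 fold change of 0.27 ± 0.37 SE with adjusted p = 0.66).

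Among Kv4 channels, which carry the transient A-type current, Kcnd2 and Kcnd3 rose and Kcnd1 did not pass. Kcnd2 (Kv4.2), known from granule cells, had 229 and 229 CPM in the controls against 361, 361 and 347 CPM in Yy1 cKO (a log2 fold change of 0.64 ± 0.056 SE with adjusted p = 5.7e-05). Its replicates lay close together, and the gap between the groups was far wider than the spread within them. Kcnd3 (Kv4.3), mutated in another inherited ataxia, had 106 and 93.0 against 119, 133 and 121 CPM (a log2 fold change of 0.32 ± 0.076 SE with adjusted p = 0.014) and was not called without control 2 (with adjusted p = 0.17). The KChIP genes, whose calcium-binding products join Kv4 channels, split. Kcnip4 rose, with 50.3 and 42.0 CPM in the controls against 106, 101 and 72.2 CPM in Yy1 cKO (a log2 fold change of 1.01 ± 0.20 SE with adjusted p = 0.027), highest in Yy1 cKO 1 and 2 and lower in Yy1 cKO 3. Kcnip3, which also acts as a transcriptional repressor, fell, with 133 and 135 against 114, 115 and 92.4 CPM (a log2 fold change of -0.33 ± 0.092 SE with adjusted p = 0.035). Kcnip2 fell by 0.82 ± 0.13 (SE, adjusted p = 0.0017), from a mean of 10.53 to 5.98 CPM. Kcnip1 had 40.4 and 34.0 against 34.4, 36.6 and 23.8 CPM, lowest in Yy1 cKO 3 (a log2 fold change of -0.23 ± 0.19 SE with adjusted p = 0.45). The call of Kcnip4 was lost without control 1, control 2 or Yy1 cKO 2 (with adjusted p = 0.068, 0.12 and 0.063) and that of Kcnip3 without control 1 or control 2 (with adjusted p = 0.15 and 0.18). In CPM per kb the ratio of Kcnip4 to Kcnip3 was 0.369 and 0.304 in the controls against 0.911, 0.861 and 0.764 in Yy1 cKO. A protein-coding gene on the opposite strand, 5730480H06Rik, shares up to 105 exon bases with Kcnip4 and had 222 to 260 counts per library.

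**Figure D2:**
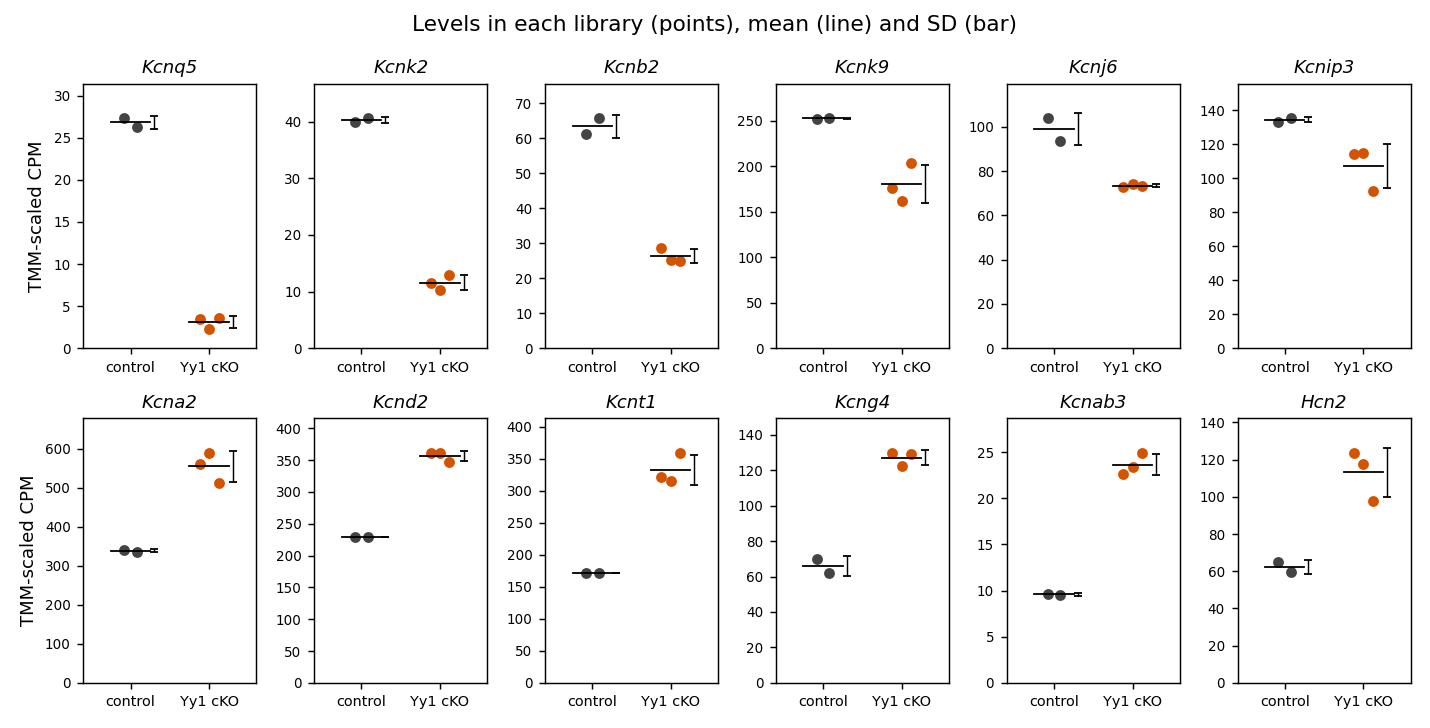
TMM-scaled CPM of 12 members in each of the 2 control libraries (grey points) and 3 Yy1 cKO libraries (orange points), each panel with its own axis from 0, with the group mean as a line and the SD as a bar. The groups do not overlap in any of the 12 panels: the upper row shows members that fell and the lower row members that rose. The 12 were picked from called members, and groups did not overlap for 52.2% of all genes tested.

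Kv7 channels carry the M-current, which stays open near threshold and damps repetitive firing, and they held the largest change among the members. Kcnq5 (ENSMUSG00000028033.16, chromosome 1, 21398403 to 21961942, GRCm38) had 509 and 472 counts in the controls against 68, 42 and 67 in Yy1 cKO. As levels these were 27.3 and 26.3 CPM in the controls against 3.42, 2.30 and 3.60 CPM in Yy1 cKO (a log2 fold change of -3.10 ± 0.16 SE with adjusted p = 2.5e-06), or 0.116 of the control level. Kcnq3, whose product forms heteromers with other Kv7 subunits, had 60.2 and 54.7 CPM in the controls against 75.2, 75.0 and 141 CPM in Yy1 cKO and did not pass (a log2 fold change of 0.76 ± 0.39 SE with adjusted p = 0.29). Yy1 cKO 3 stood far above the other Yy1 cKO libraries, and without it Kcnq3 was called higher, at 0.39 on the log2 scale (adjusted p = 2.0e-04). Kcnq1 had 28 and 21 counts in the controls against 26, 22 and 7 in Yy1 cKO, while the noncoding Kcnq1ot1, transcribed across it from the opposite strand and sharing 121 exon bases, had 6952 to 8566. The strand setting of the counting is not given in the sources used here, so Kcnq1 is uncertain. Kcnq5 fell beside the markers of precursors and young neurons, all 12 of which fell, and their part in it was not tested. KCNE proteins are single-pass partners of Kv7 and other channels. The X-linked Kcne1l (now Kcne5), with 11.7 and 9.70 against 6.09, 5.58 and 5.85 CPM, fell by 0.87 ± 0.14 (SE, adjusted p = 0.0017), and the rare Kcne4, with 15 and 23 counts in the controls against 3, 9 and 7 in Yy1 cKO, fell by 1.61 ± 0.50 (SE, adjusted p = 0.044). Kcne4 was not called without control 1, control 2 or Yy1 cKO 1 (with adjusted p = 0.099, 0.32 and 0.11).

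Of the 7 EAG, ERG and ELK genes of the Kcnh subfamily tested, 3 rose and 2 fell. Kcnh1 (EAG1) had 57.7 and 51.3 CPM in the controls against 84.2, 90.7 and 72.9 CPM in Yy1 cKO (a log2 fold change of 0.60 ± 0.098 SE with adjusted p = 0.0028). Kcnh2 (ERG1), the channel behind the cardiac rapid delayed rectifier, rose by 0.51 ± 0.10 (SE, adjusted p = 0.0063), from a mean of 24.8 to 35.3 CPM. Kcnh3 (ELK2), a forebrain-enriched gene, was rarer and had 6.45 and 6.02 against 13.6, 16.9 and 10.7 CPM (a log2 fold change of 1.14 ± 0.19 SE with adjusted p = 0.0034). All 3 of these called genes had higher values in every Yy1 cKO library than in either control. Groups did not overlap, in either direction, for 52.2% of all genes tested. Mcrs1, with 545 to 663 counts, shares 1 exon base with Kcnh3 on the opposite strand. The 2 that fell were rare: Kcnh8 (ELK1) had 36 and 33 counts in the controls against 10, 12 and 8 in Yy1 cKO (a log2 fold change of -1.82 ± 0.32 SE with adjusted p = 0.0032), and Kcnh6 (ERG2) had 40 and 40 counts in the controls against 26, 14 and 17 in Yy1 cKO (a log2 fold change of -1.12 ± 0.30 SE with adjusted p = 0.023). Kcnh7 (ERG3) lay just outside the threshold, with 19.5 and 17.8 against 14.3, 13.6 and 9.02 CPM (a log2 fold change of -0.60 ± 0.18 SE with adjusted p = 0.05013), and passed it without Yy1 cKO 1 or Yy1 cKO 3 (with adjusted p = 0.042 and 0.0084). It was also called lower by DESeq2 (adjusted p = 0.032) and limma-voom (adjusted p = 0.041), with library size or upper quartile scaling, with no filter or a filter at 1 CPM, and with the replicate block. Gca, on the opposite strand, shares up to 696 exon bases with it and had 73 to 121 counts. Kcnh5 had 1.61 to 3.01 CPM and its groups overlapped. The call of Kcnh2 was lost without control 2 (with adjusted p = 0.085) and that of Kcnh6 without control 1, control 2 or Yy1 cKO 2 (with adjusted p = 0.11, 0.13 and 0.072).

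Of the genes of calcium-activated channels, Kcnma1 and Kcnn2 rose and Kcnmb2 fell. Kcnma1, the pore of the BK channel, had 246 and 275 CPM in the controls against 360.0, 369 and 330.2 CPM in Yy1 cKO (a log2 fold change of 0.44 ± 0.074 SE with adjusted p = 0.0023). It was at the threshold without control 1 (adjusted p = 0.05002), the control with the lower level. Kcnmb4, the neuronal BK beta subunit, had 38.3 and 39.3 against 43.3, 42.7 and 40.4 CPM, with every Yy1 cKO library slightly above the controls but no call (a log2 fold change of 0.12 ± 0.071 SE with adjusted p = 0.26). Kcnmb2, an inactivating beta subunit, had 2.47 and 4.07 against 1.41, 1.42 and 1.56 CPM (a log2 fold change of -1.16 ± 0.27 SE with adjusted p = 0.014), and without control 2, the higher control, its log2 fold change was -0.75 (adjusted p = 0.17). Of the SK channels, which produce the afterhyperpolarization, Kcnn2 (SK2), the form known from Purkinje cells, had 37.4 and 41.4 CPM in the controls against 55.8, 51.1 and 62.6 CPM in Yy1 cKO (a log2 fold change of 0.52 ± 0.094 SE with adjusted p = 0.0036). It was not called without control 1 (with adjusted p = 0.061). Kcnn1 had 5.59 and 7.14 against 6.29, 6.41 and 6.07 CPM (a log2 fold change of -0.02 ± 0.16 SE with adjusted p = 0.94), and Kcnn3 came to -0.20 on the log2 scale (adjusted p = 0.25).

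The pair of sodium-activated channels moved in opposite directions. Kcnt1 (Slack) had 172 and 171 CPM in the controls against 321, 316 and 359 CPM in Yy1 cKO (a log2 fold change of 0.95 ± 0.070 SE with adjusted p = 2.0e-05), and Kcnt2 (Slick) had 5.80 and 5.24 CPM in the controls against 1.56, 2.19 and 1.66 CPM in Yy1 cKO (a log2 fold change of -1.61 ± 0.21 SE with adjusted p = 5.9e-04). In CPM per kb the ratio of Kcnt1 to Kcnt2 was 21.5 and 23.7 in the controls against 149, 105 and 156 in Yy1 cKO. Kcnu1, a sperm channel, had 0.430 and 0.892 against 0.604, 0.328 and 0.591 CPM (a log2 fold change of -0.36 ± 0.49 SE with adjusted p = 0.65), and the smooth muscle beta subunit gene Kcnmb1 had 6 to 12 counts per library.

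**Figure D3:**
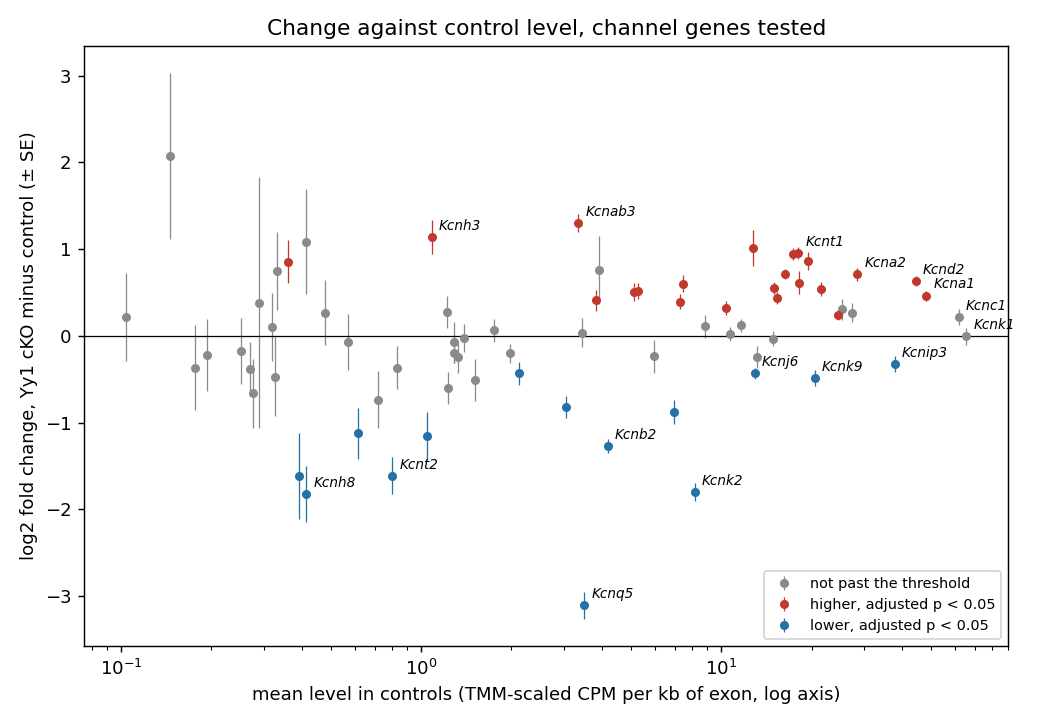
Log2 fold change with its standard error against the mean level in the controls, as TMM-scaled CPM per kb on a log axis, for 73 of the members tested. The lowest points are Kcnq5, Kcnh8 and Kcnk2, and Kcnk1 lies far to the right at 65.7 CPM per kb.

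Inward rectifiers divide into G protein-gated, classical, ATP-sensitive and glial kinds. The G protein-gated (GIRK) genes split. Kcnj9 (GIRK3) rose, with 70.2 and 70.2 CPM in the controls against 114, 118 and 114 CPM in Yy1 cKO (a log2 fold change of 0.72 ± 0.056 SE with adjusted p = 2.8e-05), and Kcnj3 (GIRK1) had 129.6 and 127 against 155, 153 and 146 CPM (a log2 fold change of 0.24 ± 0.055 SE with adjusted p = 0.012). Kcnj6 (GIRK2), the gene of the weaver mouse, fell, with 104 and 93.7 CPM in the controls against 72.8, 74.0 and 73.1 CPM in Yy1 cKO (a log2 fold change of -0.43 ± 0.063 SE with adjusted p = 0.0011). In CPM per kb the ratio of Kcnj9 to Kcnj6 was 1.20 and 1.33 in the controls against 2.79, 2.83 and 2.78 in Yy1 cKO. Kcnj12 (Kir2.2), a classical strong rectifier, rose by 0.55 ± 0.081 (SE, adjusted p = 0.0012), from a mean of 59.1 to 86.3 CPM. Kcnj10 (Kir4.1), the glial channel that takes up potassium, had 152 and 143 CPM in the controls against 194, 187 and 150.0 CPM in Yy1 cKO and did not pass (a log2 fold change of 0.27 ± 0.11 SE with adjusted p = 0.13); without Yy1 cKO 3 it was called higher at 0.37 (adjusted p = 1.9e-05). Its partner Kcnj16 (Kir5.1) rose by 0.41 ± 0.12 (SE, adjusted p = 0.032). Kcnj3 was not called without control 1, control 2 or Yy1 cKO 1 (with adjusted p = 0.094, 0.13 and 0.055), and Kcnj16 was not called without control 1, control 2, Yy1 cKO 1 or Yy1 cKO 2 (with adjusted p = 0.067, 0.24, 0.095 and 0.074). The ATP-sensitive Kcnj11 (Kir6.2) and Kcnj8 (Kir6.1, of mural cells) had log2 fold changes of 0.11 and -0.51, and Kcnj2 -0.37, with overlapping groups. Kcnj13 had 3 to 27 counts, while Gigyf2 on the opposite strand, sharing 355 exon bases, had 2019 to 2442, so that its value is uncertain.

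K2P channels, named for the pair of pore loops in each subunit, carry the leak current. Kcnk2 (TREK1; ENSMUSG00000037624.15, chromosome 1, 189207930 to 189402273, GRCm38), a channel opened by stretch and lipids, had 39.9 and 40.7 CPM in the controls against 11.4, 10.3 and 13.0 CPM in Yy1 cKO (a log2 fold change of -1.80 ± 0.11 SE with adjusted p = 7.1e-06), or 0.287 of the control level. Its antisense neighbour A430027H14Rik, with 65 and 51 counts in the controls against 14, 16 and 23 in Yy1 cKO, shares up to 277 exon bases with it. Kcnk9 (TASK3), an acid-sensitive leak channel of granule cells, fell, with 252 and 253 CPM in the controls against 176, 162 and 204 CPM in Yy1 cKO (a log2 fold change of -0.49 ± 0.089 SE with adjusted p = 0.0051). Its relative Kcnk3 (TASK1) lay at 94.7 to 106 CPM in the controls and 105 to 141 CPM in Yy1 cKO and did not pass (a log2 fold change of 0.31 ± 0.13 SE with adjusted p = 0.14); it was called without Yy1 cKO 3 (adjusted p = 4.2e-04). On the opposite strand Gm9899 shares 229 exon bases with Kcnk3 and had 752 and 731 counts in the controls against 701, 707 and 580 in Yy1 cKO, so the value of Kcnk3 is uncertain. Kcnk1 (TWIK1), the most abundant of the subfamily per kb, had 143 and 150.3 against 149, 164 and 127 CPM, with the controls inside the range of Yy1 cKO (a log2 fold change of -0.0032 ± 0.099 SE with adjusted p = 0.99), and Kcnk10 (TREK2) had a log2 fold change of -0.03 ± 0.089 (SE). Kcnk12 (THIK2) rose by 0.61 ± 0.13 (SE, adjusted p = 0.016), from a mean of 35.9 to 54.9 CPM, and was not called without control 1 or control 2 (with adjusted p = 0.11 and 0.090). The remaining members Kcnk4, Kcnk5, Kcnk6 and Kcnk13 were all under 5 CPM and did not pass.

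HCN channels carry the current that opens on hyperpolarization. Hcn2, the most abundant per kb of the HCN genes, had 64.8 and 59.7 CPM in the controls against 124, 118 and 98.1 CPM in Yy1 cKO (a log2 fold change of 0.86 ± 0.10 SE with adjusted p = 5.5e-04), and every Yy1 cKO library lay above both controls. Hcn3 had 8.33 and 9.31 against 6.59, 6.79 and 6.28 CPM (a log2 fold change of -0.43 ± 0.13 SE with adjusted p = 0.044), a call lost when any 1 of the 5 libraries was left out (adjusted p = 0.057 to 0.28). Hcn4, the slow pacemaker subunit, had 12.3 and 11.9 against 10.3, 10.4 and 10.8 CPM (a log2 fold change of -0.20 ± 0.11 SE with adjusted p = 0.22).

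The make-up of a subfamily is described as the share of each member in the summed CPM per kb of its subfamily. With 2 against 3 libraries no permutation test of a share can reach 0.05, so none is given. Kcnq5 held 18.8% and 20.3% in the controls against 1.99%, 1.30% and 1.91% in Yy1 cKO. Kcna2 held 30.0% and 30.1% in the controls against 36.1%, 38.0% and 33.7% in Yy1 cKO of the Kv1 genes, while Kcna1 kept close to the same share, 50.3% and 51.6% in the controls against 51.2%, 49.1% and 54.0% in Yy1 cKO. Hcn2 held 57.9% and 56.9% in the controls against 70.0%, 69.0% and 64.9% in Yy1 cKO. In each of these but Kcna1 the groups did not overlap. Kcnq5, Kcna2 and Hcn2 were picked from called members and their shares come from the same counts, so this separation adds no evidence. In level, groups did not overlap for 52.2% of all genes tested. Lengths are of all annotated exons, so a gene with rarely used exons appears lower per kb than it is.

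**Figure D4:**
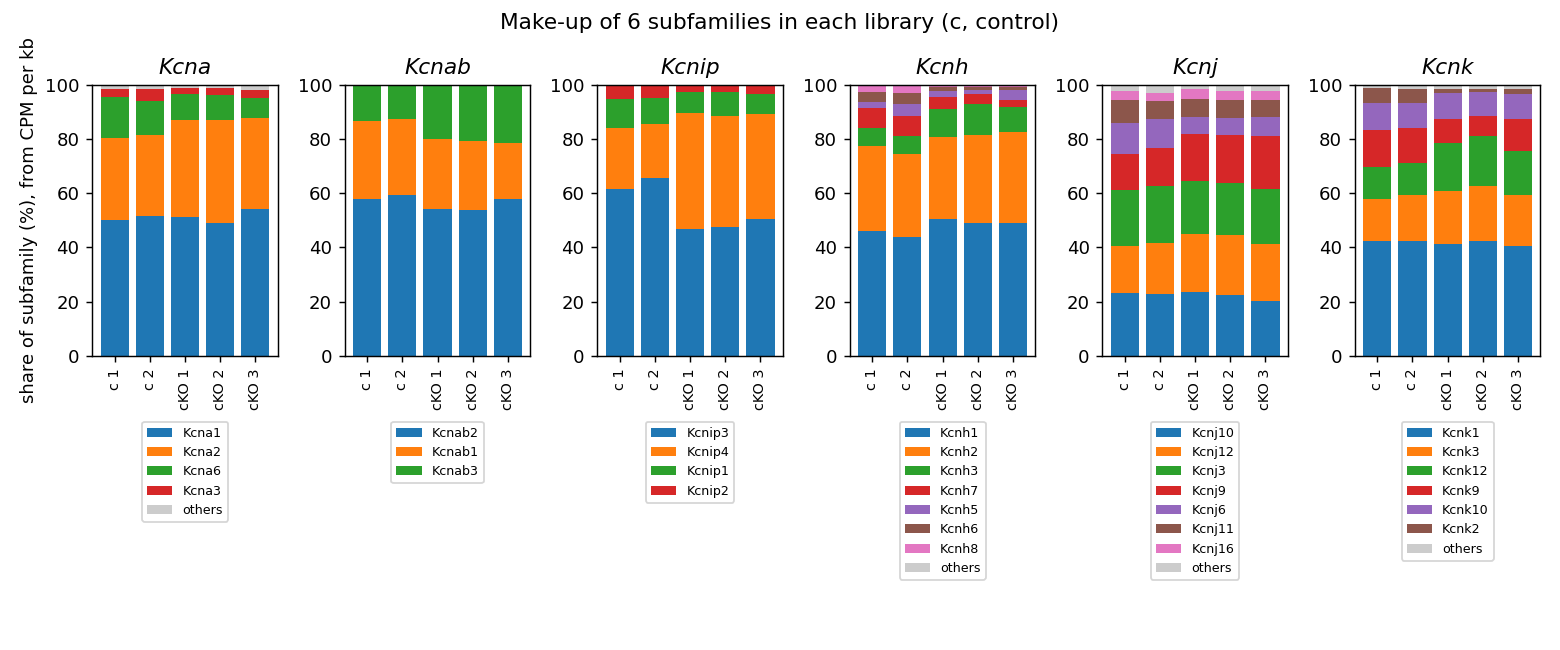
Share of members in the Kcna, Kcnab, Kcnip, Kcnh, Kcnj and Kcnk subfamilies, from TMM-scaled CPM per kb, as stacked bars for the 2 control and 3 Yy1 cKO libraries. Members with the smallest shares are pooled as others, and the Kcnq and Hcn subfamilies are not drawn. Kcnip4 and Kcnab3 take a larger share in every Yy1 cKO library than in either control, and Kcnk2 and Kcnip3 a smaller one.

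By level per kb Kcnk1 at 65.7, Kcnc1 at 61.9, Kcna1 at 48.3, Kcnd2 at 44.5, Kcnip3 at 37.9 and Kcna2 at 28.4 CPM per kb were among the most abundant members in the controls. The values of Kcnk1 (64.1 and 67.2) and Kcnc1 (62.4 and 61.4) lay close together without overlapping, and Kcna1 (48.2 and 48.4) lay above Kcnd2 (44.5 and 44.5). In Yy1 cKO the order was Kcnc1 at 71.8, Kcnd2 at 69.2, Kcna1 at 66.6 and Kcnk1 at 65.5 CPM per kb, 4 genes whose libraries overlapped. Kcna2 stood at 46.6 and Kcnip3 at 30.2 CPM per kb there.

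A list of 28 genes whose products act with these channels was followed beside them. It was chosen with earlier results of these data known, so its shares are a description only. Of 27 tested 11 rose and 3 fell, which is 40.7% and 11.1%, beside 10.7% and 12.6% of all genes tested. The median log2 fold change was 0.19, beside -0.00086 over all genes. Pex5l (TRIP8b), which carries HCN channels to the membrane, had 16.9 and 16.95 CPM in the controls against 39.1, 37.4 and 32.4 CPM in Yy1 cKO (a log2 fold change of 1.10 ± 0.10 SE with adjusted p = 8.0e-05). Amigo1, an auxiliary subunit of Kv2 channels, had 52.3 and 54.1 against 80.2, 85.4 and 76.7 CPM (a log2 fold change of 0.60 ± 0.067 SE with adjusted p = 2.2e-04). Adam11, which is needed to place Kv1 channels at basket cell terminals, had 194 and 207 against 281, 293 and 305 CPM (a log2 fold change of 0.55 ± 0.062 SE with adjusted p = 2.3e-04). The scaffolds Dlg1 and Dlg4 rose by 0.54 ± 0.058 (SE, adjusted p = 1.7e-04) and 0.38 ± 0.057 (SE, adjusted p = 0.0012). The 4 genes of the secreted Lgi proteins, ligands of the ADAM22 family, all rose: Lgi3 by 0.51, Lgi4 by 0.81, Lgi2 by 0.77 and Lgi1 by 0.21 on the log2 scale. Dpp6, an auxiliary subunit of Kv4, rose by 0.23 ± 0.065 (SE, adjusted p = 0.030), and Lrrc38, a BK gamma subunit, by 0.51 ± 0.16 (SE, adjusted p = 0.047). Another BK gamma subunit gene, Lrrc55, fell, with 25.5 and 28.4 CPM in the controls against 8.20, 11.1 and 7.03 CPM in Yy1 cKO (a log2 fold change of -1.62 ± 0.17 SE with adjusted p = 3.1e-04). Dlg3 fell by 0.24 ± 0.066 (SE, adjusted p = 0.030). Cntn2, an axonal adhesion molecule of the Kv1 clusters of myelinated axons and also a marker of young granule cells, fell by 0.32 ± 0.066 (SE, adjusted p = 0.0069). Lrrc38 was not called without any 1 of the 5 libraries (adjusted p = 0.062 to 0.28), Lgi1 without control 1, control 2 or Yy1 cKO 1 (with adjusted p = 0.10, 0.29 and 0.11), Lgi2 without control 1 or control 2 (with adjusted p = 0.17 and 0.16), Dpp6 without control 1, control 2, Yy1 cKO 1 or Yy1 cKO 2 (with adjusted p = 0.095, 0.26, 0.12 and 0.074), Dlg3 without control 1, control 2 or Yy1 cKO 1 (with adjusted p = 0.20, 0.14 and 0.076) and Cntn2 without control 1 or control 2 (with adjusted p = 0.079 and 0.060). Without control 1 or control 2 the list had 7 higher and 1 lower, beside 10.3% of all genes called in either direction.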

How the data were processed

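RNA of whole cerebella at postnatal day 14 was sequenced from 2 control and 3 Yy1 cKO samples. The deposited table holds the authors' raw counts per gene for GRCm38. The submitters' processing notes name STAR 2.7.1a, featureCounts, Trimmomatic 0.39, DESeq2 1.26.0 and FastQC 0.11.8, and their settings and strand mode were not given in the sources used here. Gene identifiers were matched to GENCODE (54673 with their version, 567 without, 181 unmatched). The 5 libraries hold 17424860 to 20305705 counts. Genes kept by filterByExpr (20388) were tested with edgeR 4.0.16 (R 4.3.3; TMM scaling, robust quasi-likelihood fit, Benjamini-Hochberg adjustment over all genes, threshold 0.05), with no covariate. Alternatives were other scalings and filters, DESeq2 1.42.0, limma 3.58.1 (voom), a replicate block and leaving out each library. The fit was tested on simulated data. Named were the called members, with values per library for those of smallest p or largest change, the most abundant of each subfamily and members known from the cerebellum. Members and gene lists were chosen with earlier results of these data known. Some members are not reported by name here and are not drawn, but stand in the counts.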

Additional observations from a re-analysis of the deposited data

How the results depend on the processing

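Of the 40 calls among the members, 24 held under every alternative scaling, filter and tool and without each library in turn, and no call shared with another setting changed sign. Leaving out 1 library gave 17 to 30 members higher (26 with all libraries), 9 to 15 lower (14) and a median log2 fold change of 0.080 to 0.18 (0.11). For the partner genes it gave 7 to 15 higher (11) and 1 to 4 lower (3). Of all genes tested 10.3% to 30.5% were then called (23.4%). Scaling by library size alone shifted the median of all genes by -0.078 and gave a members' median of 0.028 and no call for Kcnj3 and Kcnj16 among others, with 7 partners higher and 5 lower, and over all genes 1432 higher and 3369 lower against 2185 and 2577. At a threshold of 0.01 there were 9 members lower and 7 partners higher. Without division by exon length the share of Kcnq5 differed by -11.0 percentage points (-17.8 with it) and that of Hcn2 by 7.49 (10.6). DESeq2, which also took in genes outside the filter, called 37 members, without Hcn3, Kcne4 and Kcnh6 among others. Over all genes it called 11.2% of 34112, a base that includes any gene left without an adjusted p. That share is therefore not comparable with the 23.4% of the main fit. Replicate numbers were shared between groups, but the labels do not tie replicates to litters, so same-numbered libraries were not taken as pairs. Their deviations from the group means correlated at 0.039 and 0.032. With 2 controls the control deviations mirror each other, so these values cannot settle whether libraries were paired. The replicate block kept all 40 calls and gave 31 members higher and 18 lower, and 16 partners higher and 4 lower. Of all genes tested 34.6% were called with the block. Since Yy1 cKO 3 has no control of its number, the block sets it aside. Under it Kcnv2 went from 0.38 to -1.47 (adjusted p = 0.0032). Members near 1 CPM rest on few counts, and a missing call there says little.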
